A study of Mus musculus with 7 samples.

Results

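Skeletal muscle lies beneath the dermis of mouse skin as a thin sheet, the panniculus carnosus, so RNA from whole skin carries transcripts of muscle fibres as well as those of epidermis, dermis and fat. A set of 42 genes of muscle contraction was followed in lesional skin of bleomycin-treated mice. The set was chosen by name, as genes of the fast and slow sarcomere, of calcium handling, of muscle energy supply and of myogenic transcription, and all 42 were found among the 23185 genes with a symbol on the array. In knockout skin 36 of the 42 had a higher mean than in wild type skin, with a median difference of 0.38 on the log2 scale against 0.010 over all genes, most of which are dimmer, but 0 of 42 passed the test (adjusted p under 0.05 in limma), against 0.00431% of all genes. The lowest value of 29 of the 42 was on the same wild type array, as it was for 19.2% of all genes.

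The samples were lesional skin of male C57BL/6 mice, 9 weeks old, that had been given bleomycin by injection over 3 weeks. The genotypes compared were ox40l-/- (knockout, 4 arrays) and ox40l+/+ (wild type, 3 arrays). The series describes 4 and 3 mice, but the labels do not tie each array to its own animal, so p-values measure the spread between these arrays. Their sample codes share numbers: 17 for wild type replicates 1 and 2, 16 for knockout replicates 1 and 2, and 18 for wild type replicate 3 and knockout replicate 3, with 19 for knockout replicate 4 alone. The labels do not say whether a shared number means a shared animal or batch; if it meant an animal, fewer animals than arrays would stand behind each p-value. OX40L, encoded by Tnfsf4, is a costimulatory ligand of the TNF superfamily, and repeated bleomycin is a common means of inducing skin fibrosis. Both genotypes received bleomycin, so its own effect on muscle transcripts was not measured, and the labels do not say how the ox40l-/- allele was made.

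Values are RMA log2 expression values as the authors deposited them, so a difference of 1 is a 2-fold change, and a difference is always knockout minus wild type. Over genes, wild type replicate 3 had the smallest SD of the 7 arrays (1.17) and wild type replicate 1 the largest (1.67), while the other 5 lay between 1.32 and 1.42. Medians over genes ran from 3.45 on wild type replicate 1 to 3.73 on wild type replicate 3. Tnfsf4 itself was at 2.95 ± 0.27 (SD) on the 4 knockout arrays, with wild type at 2.93 ± 0.63 (SD, n = 3). Whether its probes lie in the deleted sequence is not known here, so these values do not check the labels. As a check of the tissue, 9 of 10 keratinocyte markers and 37 of 42 muscle members were above the array's median over genes on every array. Over all genes, 8349 of 23185 were.

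In a muscle fibre, thick filaments of myosin pull on thin filaments of actin within sarcomeres that are anchored at Z-discs. An action potential opens calcium channels of the transverse tubule and the sarcoplasmic reticulum, calcium binds troponin, and the thin filament becomes free to bind myosin until a calcium pump empties the cytoplasm again. Fast and slow fibres use different genes for most of these parts, and the panniculus carnosus is known as a mainly fast muscle. The transcription factors Myod1, Myf6 and Myog bind E-boxes in muscle promoters, often together with MEF2 factors.

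The start-site regions of 32 of the 42 members were in the RefSeq promoter table (build GRCm38.p6), as 40 windows because some genes have several starts. The 250 bases before each start were searched on both strands. The E-box CANNTG was in 34 of the 40 windows (85.0%) and in 66.2% of all 32851 windows in the table. Its form CAGCTG, which is a subset of CANNTG, was in 18 of 40 (45.0%) and in 4271 of the 32851. The MEF2 motif YTAWWWWTAR was in 6 of 40 (15.0%) and in 2.92% of all. The CArG box CCWWWWWWGG, bound by serum response factor, was in 5 of 40 (12.5%) and in 1.47% of all. In these patterns Y is C or T, R is A or G, W is A or T and N is any base. Only exact matches were counted, so a site that departs from a pattern at any base is not marked. A match is a description of letters in these windows and does not show that a factor binds there. The next lines show these 250 bases for 4 members whose values followed the mean of the others over the arrays (r from 0.93 to 0.95), Myh4, Mylpf, Acta1 and Atp2a1, and for 2 that did not follow it, Tnnc2 and Myog. They read 5′ to 3′ and end at the base before the start, and capitals mark E-boxes, MEF2 motifs and CArG boxes.
Myh4 (chr11:67237562-67237811, plus strand): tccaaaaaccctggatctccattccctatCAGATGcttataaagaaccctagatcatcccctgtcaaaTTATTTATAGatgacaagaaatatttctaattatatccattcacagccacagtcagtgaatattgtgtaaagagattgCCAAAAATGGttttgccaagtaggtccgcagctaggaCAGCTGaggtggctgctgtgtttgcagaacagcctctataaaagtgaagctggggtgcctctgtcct
Mylpf (chr7:127211358-127211607, plus strand): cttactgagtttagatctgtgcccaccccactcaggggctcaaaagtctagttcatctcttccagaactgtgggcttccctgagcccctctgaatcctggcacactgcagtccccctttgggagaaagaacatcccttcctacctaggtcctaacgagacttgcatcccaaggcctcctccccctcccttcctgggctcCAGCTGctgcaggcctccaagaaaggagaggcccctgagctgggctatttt
Acta1 (chr8:123894776-123895025, minus strand): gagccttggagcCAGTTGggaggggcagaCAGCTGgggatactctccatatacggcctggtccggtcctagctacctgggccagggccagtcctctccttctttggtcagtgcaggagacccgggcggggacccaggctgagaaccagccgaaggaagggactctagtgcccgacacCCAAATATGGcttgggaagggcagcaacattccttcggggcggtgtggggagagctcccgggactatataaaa
Atp2a1 (chr7:126463074-126463323, minus strand): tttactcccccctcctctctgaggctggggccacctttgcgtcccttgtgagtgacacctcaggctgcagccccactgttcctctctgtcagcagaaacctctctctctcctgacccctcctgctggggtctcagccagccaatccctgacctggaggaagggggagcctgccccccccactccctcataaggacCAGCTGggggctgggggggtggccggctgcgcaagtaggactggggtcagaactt
Tnnc2 (chr2:164779735-164779984, minus strand): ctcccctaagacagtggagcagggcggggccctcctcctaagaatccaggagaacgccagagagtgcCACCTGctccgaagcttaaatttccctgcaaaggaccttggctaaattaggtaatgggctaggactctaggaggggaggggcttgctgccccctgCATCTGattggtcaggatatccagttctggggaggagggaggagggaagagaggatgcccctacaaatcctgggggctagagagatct
Myog (chr1:134289754-134290003, plus strand): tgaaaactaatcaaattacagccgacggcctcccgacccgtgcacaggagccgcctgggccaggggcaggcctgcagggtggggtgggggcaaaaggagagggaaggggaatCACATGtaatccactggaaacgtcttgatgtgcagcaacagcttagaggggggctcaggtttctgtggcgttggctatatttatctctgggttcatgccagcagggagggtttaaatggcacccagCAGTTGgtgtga
Myh4 held 2 E-boxes, 1 MEF2 motif and 1 CArG box, and Acta1 held 2 E-boxes and 1 CArG box. Mylpf and Atp2a1 held 1 E-box each, of the form CAGCTG. Tnnc2 and Myog held 2 E-boxes each and none of the form CAGCTG. Over all 32 members in the table this form was in a window of 16. Among these were Myl2, Tnni1 and Tpm3, which did not follow the mean of the others (r = -0.01, -0.23 and 0.003). It was not in Tnnc1, Actn2, Mybpc2 or Pvalb, which did (r from 0.90 to 0.92). Whether the form goes with the order over the arrays was not tested.

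Most members had a like order over the arrays. The member score of an array averages the 42 genes after each is centred on its own mean over the 7 arrays. It was -0.09, 0.26 and -0.83 on wild type replicates 1 to 3 and 0.07, 0.06, 0.02 and 0.51 on knockout replicates 1 to 4. The lowest score was on wild type replicate 3 and the highest on knockout replicate 4, and wild type replicates 1 and 2 lay on either side of knockout replicates 1 to 3. Of the 42 members, 29 (69.0%) had their lowest value on wild type replicate 3, against 19.2% of all genes, and 24 (57.1%) had their highest on knockout replicate 4, against 8.04% of all genes. On wild type replicate 3, 21 members were at least 1 log2 unit below their mean on the other 6 arrays. Each member's values were correlated with the mean of the other 41 over the 7 arrays, as a description, since these points share the arrays' level and spread. The median r was 0.88, 26 members had an r above 0.8, and 6 had an r below 0.

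**Figure D1:**
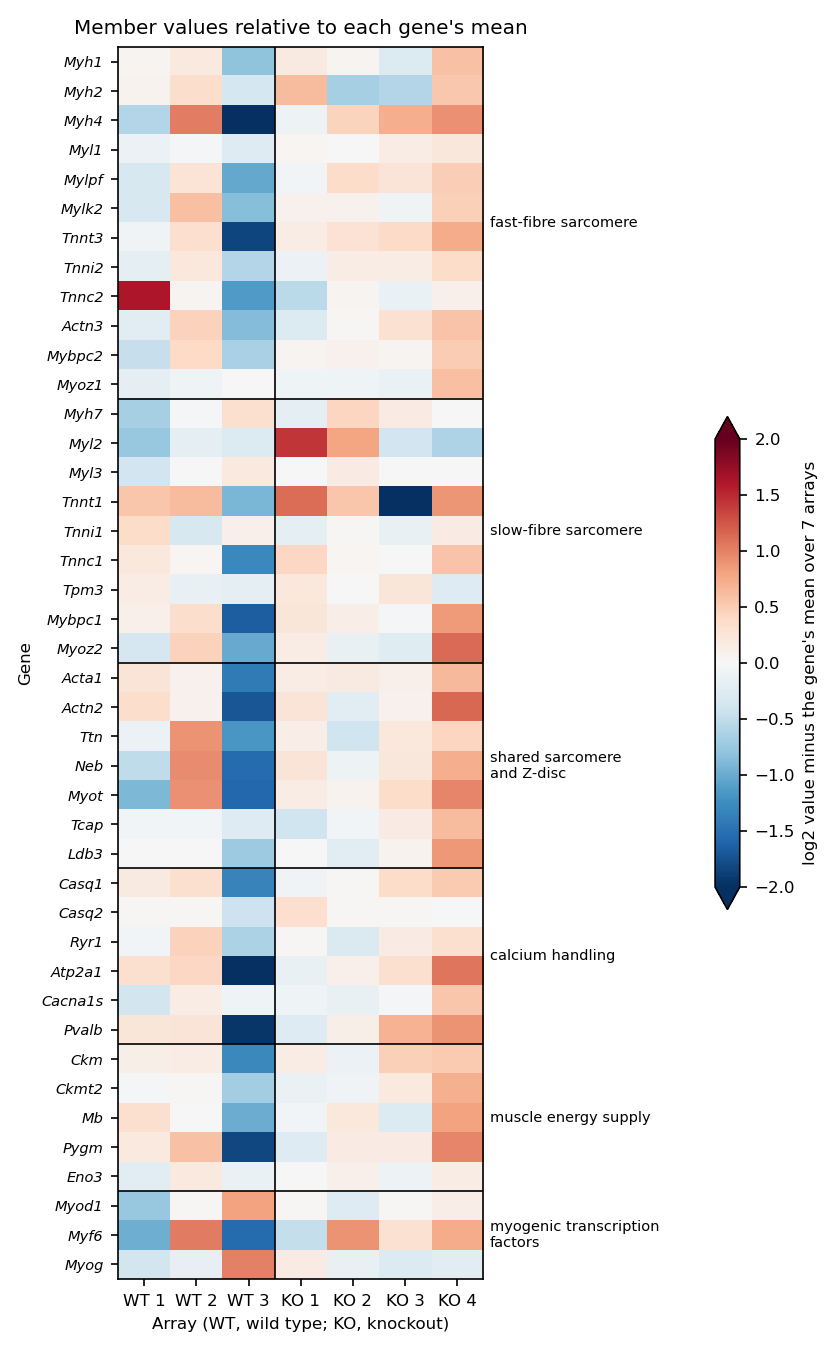
Heat map of the 42 members (rows, by role) on the 7 arrays (columns), coloured by the log2 value minus the gene's mean over the 7 arrays; colours saturate at 2 log2 units either way. Wild type replicate 3 is the lowest array for 29 of the 42 genes and knockout replicate 4 the highest for 24, while Myod1 and Myog are highest on wild type replicate 3.

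The low values on wild type replicate 3 were not peculiar to muscle. Among all 1372 genes with a mean log2 value of at least 6, 72.7% had their lowest value on that array, and their median difference there from the mean of the other arrays was -1.13. Among the 20 members with such a mean the share was 90.0% and the median -1.43. Below a mean of 4, 6.81% of 14335 genes had their lowest value there. Knockout minus wild type also went with brightness: its median was 0.12 over all genes with a mean of at least 6 (members 0.60) and 0.31 over the 207 with a mean of at least 8 (the 11 members there 0.63). The array with the smallest spread over genes was thus also the one on which most bright genes were lowest, and the part of this in the muscle values was not tested. Fewer muscle fibres in a sample and less RNA per fibre cannot be told apart in whole skin.

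Without wild type replicate 3 the members' median difference was 0.12 against 0.08 over all genes. Higher in knockout were then 33 of 42 members and 13658 of all 23185 genes. Over all genes with a mean of at least 6 the median without that array was -0.29 (members 0.12). With a mean of at least 8 it was -0.14 (members 0.13). The members' median difference was 0.62 without wild type replicate 2 and 0.23 without knockout replicate 4. Without wild type replicate 2, 9 of 42 members had an unadjusted p under 0.05 in limma, against 3.48% of all genes. Without wild type replicate 3, 0 of 42 members had such a p, against 2786 of all 23185 genes. Among the members, 32 of 42 had a difference smaller in size without wild type replicate 3 than with it. None of the 42 passed the test in the fit of all arrays. Their adjusted p-values in limma were all at least 0.9995, and 0 of 42 had an unadjusted p under 0.05, against 0.00431% and 1.88% of all genes. The unadjusted p-values ran from 0.0780 for Mylpf to 0.915 for Myh2, and the 95% confidence intervals of all 42 differences included 0. In 27 members the interval reached a 2-fold higher level in knockout and in 3 a 2-fold lower one, so the arrays did not exclude differences of that size. The SD among wild type arrays exceeded that among knockout arrays in 34 of 42 members. The wider wild type spread was not peculiar to them. The median SD over all genes was 0.39 in wild type and 0.19 in knockout, and over the members 0.71 and 0.33. Without overlap of the genotypes, 1 member was higher in knockout, Myl1, and 0 were lower, against 1.10% and 0.815% of all genes.

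**Figure D2:**
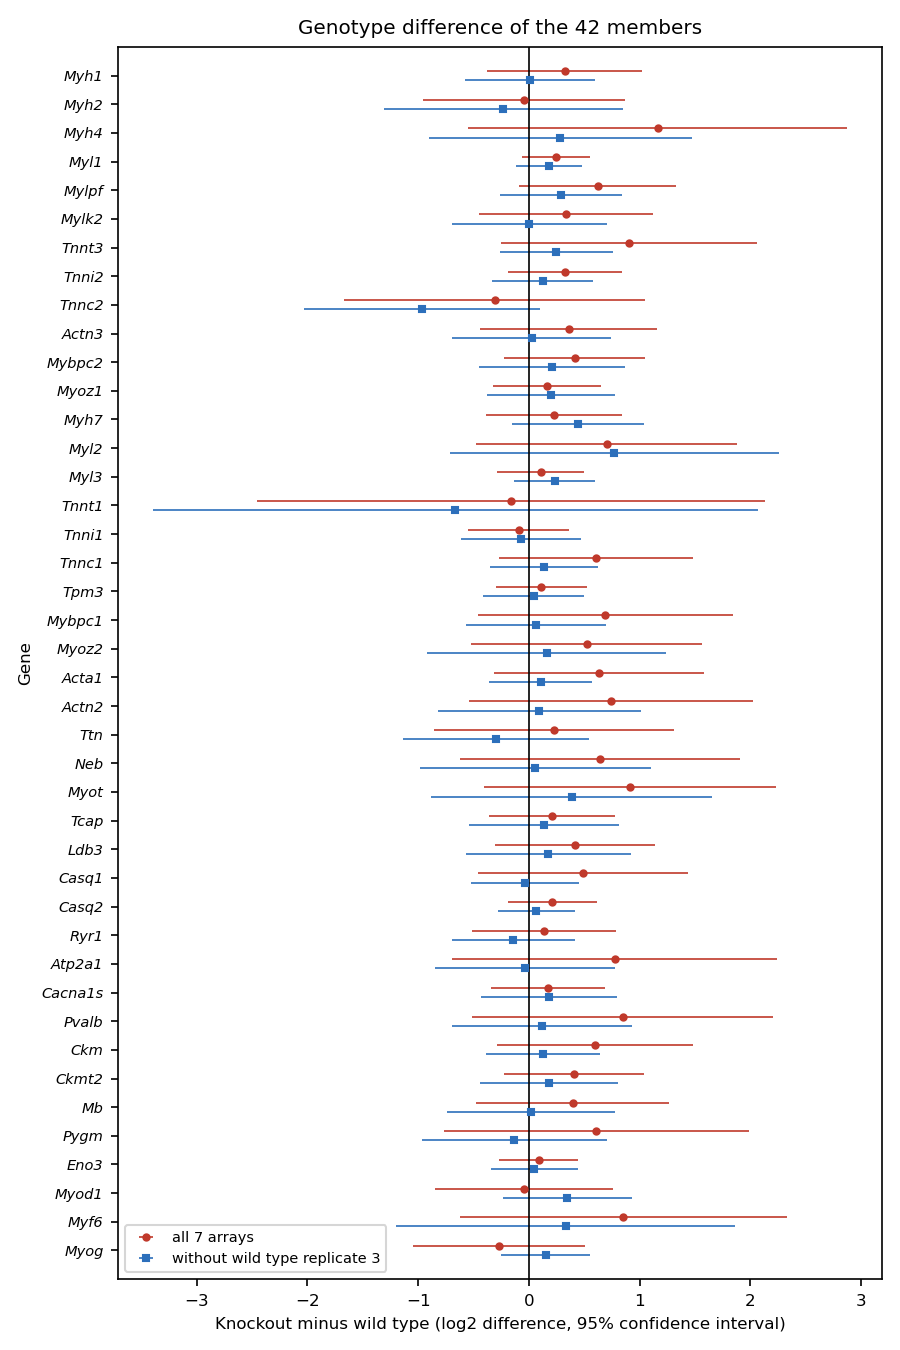
Knockout minus wild type (log2 difference with 95% confidence interval) for each of the 42 members, with all 7 arrays (circles) and without wild type replicate 3 (squares). All 42 intervals with all arrays cross 0, and 32 of the 42 differences are smaller in size without wild type replicate 3.

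The fast-fibre sarcomere genes were higher in knockout in 10 of 12, with a median of 0.33 (0.16 without wild type replicate 3 and 0.61 without wild type replicate 2), and 0 of 12 passed the test. The fast myosin heavy chains Myh2, Myh1 and Myh4 lie next to each other on the chromosome in that order among protein-coding genes, and their sequences are close to identical, so their values are uncertain where probes of 1 also bind another. Myh4, the heavy chain of the fastest fibres, was at 8.24, 9.86 and 6.41 on wild type replicates 1 to 3 and at 8.74, 9.28, 9.57 and 9.75 on knockout replicates 1 to 4. The knockout values all lay within the range of the wild type values, and wild type replicate 3 differed from the mean of the other arrays by -2.83. Its knockout minus wild type value, 1.16 (SE 0.73, limma unadjusted p = 0.153, 95% interval -0.55 to 2.88), was the largest among the 42 members and equals 2.24-fold (95% confidence interval 0.683 to 7.35). It was 0.29 without wild type replicate 3 and 2.01 without wild type replicate 2.

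Myh1, the heavy chain of fast intermediate fibres, was at 7.39, 7.52 and 6.53 on wild type replicates 1 to 3 and at 7.52, 7.39, 7.06 and 7.91 on knockout replicates 1 to 4. Myh2, that of fast oxidative fibres, was at 5.53, 5.82 and 5.11 on wild type replicates 1 to 3 and at 6.10, 4.79, 4.88 and 6.01 on knockout replicates 1 to 4. The lowest array was wild type replicate 3 for Myh1 and knockout replicate 2 for Myh2. Both genes were below their mean over the arrays on wild type replicate 3 and knockout replicate 3, and only Myh2 was on knockout replicate 2. They differed by 0.32 (SE 0.30), or 0.012 without wild type replicate 3, and -0.04 (SE 0.39), and the sign of the Myh2 difference turned when the arrays were normalized by quantiles again (0.045) or scaled to a common SD (0.032).

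Mylpf, the regulatory light chain of fast fibres, was at 9.94, 10.53 and 9.24 on wild type replicates 1 to 3 and at 10.21, 10.63, 10.51 and 10.75 on knockout replicates 1 to 4. Wild type replicate 2 lay above knockout replicates 1 and 3, so the genotypes overlapped, and the difference was 0.62 (SE 0.30, limma unadjusted p = 0.0780, 95% interval -0.09 to 1.33), the smallest p among the members. It was 0.29 without wild type replicate 3 and 0.93 without wild type replicate 2. Myl1, an essential light chain of fast fibres, was at 7.64, 7.72 and 7.50 on wild type replicates 1 to 3 and at 7.80, 7.77, 7.90 and 7.99 on knockout replicates 1 to 4. Here the genotypes did not overlap, but by a small margin, with 7.72 as the highest wild type value and 7.77 as the lowest knockout value, and the difference was 0.25 (SE 0.13, limma unadjusted p = 0.0997, 95% interval -0.06 to 0.55). Unlike most fast genes, Myl1 was nearly level over the arrays, with an SD of 0.11 in wild type and 0.10 in knockout.

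The fast troponin genes encode the calcium switch of the thin filament. Tnnt3, which holds the complex on tropomyosin, was at 10.41, 10.82 and 8.64 on wild type replicates 1 to 3 and at 10.62, 10.77, 10.86 and 11.21 on knockout replicates 1 to 4. Wild type replicate 3 differed from the mean of the other 6 arrays by -2.14, and wild type replicate 2 lay among the knockout arrays. The difference was 0.91 (SE 0.49, limma unadjusted p = 0.106, 95% interval -0.25 to 2.06), and 0.25 without wild type replicate 3. Tnni2, the inhibitory subunit, was at 10.25, 10.64 and 9.84 on wild type replicates 1 to 3 and at 10.31, 10.58, 10.58 and 10.80 on knockout replicates 1 to 4, with a difference of 0.33 (SE 0.22) that was 0.13 without wild type replicate 3 and 0.53 without wild type replicate 2.

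Tnnc2, the calcium-binding subunit, stood apart from the other fast genes, and was at 10.21, 8.64 and 7.46 on wild type replicates 1 to 3 and at 8.05, 8.64, 8.45 and 8.69 on knockout replicates 1 to 4. It was highest on wild type replicate 1, above all knockout arrays, and the knockout values lay inside the wild type range. The difference of -0.31 (SE 0.58) became -0.96 without wild type replicate 3 and changed sign, to 0.41, without wild type replicate 1. The other fast members, Mylk2, a myosin light chain kinase, Actn3, the fast alpha-actinin, Mybpc2, a myosin-binding protein, and Myoz1, a calcineurin-binding Z-disc protein, differed by 0.34, 0.36, 0.41 and 0.16, and none separated the genotypes. Without wild type replicate 3 these were 0.0033, 0.03, 0.21 and 0.20.

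**Figure D3:**
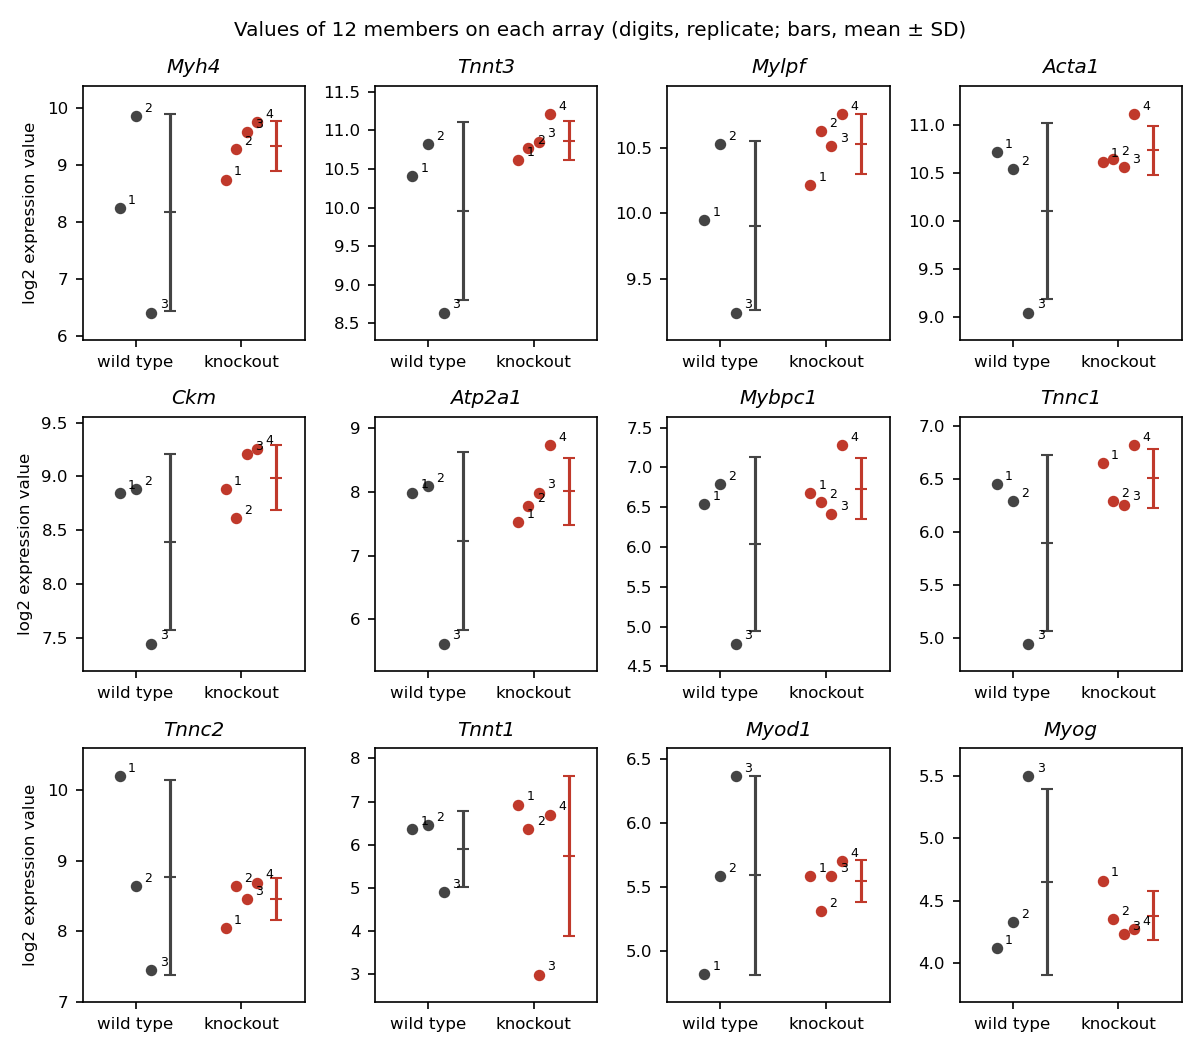
Log2 expression values of 12 members on each array, wild type in grey and knockout in red; digits give the replicate and bars the mean ± SD of the group; each panel has its own vertical scale, which does not start at 0. In Myh4, Tnnt3, Mylpf, Acta1, Ckm, Atp2a1, Mybpc1 and Tnnc1 wild type replicate 3 is the lowest array, Tnnc2 is highest on wild type replicate 1, Tnnt1 is lowest on knockout replicate 3, and Myod1 and Myog are highest on wild type replicate 3.

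The slow-fibre genes were mixed in their order over the arrays. They were higher in knockout in 7 of 9, with a median of 0.23 (0.13 without wild type replicate 3, 0.13 without knockout replicate 2 and 0.68 without knockout replicate 3), and 0 of 9 passed. Only 3 of 9 had their lowest value on wild type replicate 3, against 10 of 12 fast genes, and 5 of 9 were above the median over genes on every array, against 12 of 12; these 2 pairs of counts were not tested against each other. The 3 were Tnnc1, Mybpc1 and Myoz2. Tnnc1, troponin C of slow and heart muscle, was at 6.45, 6.29 and 4.95 on wild type replicates 1 to 3 and at 6.65, 6.29, 6.26 and 6.82 on knockout replicates 1 to 4. The other 6 arrays lay within a narrow band and wild type replicate 3 below it, and the difference was 0.61 (SE 0.37, limma unadjusted p = 0.146, 95% interval -0.27 to 1.49), or 0.13 without that array.

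Mybpc1, the slow myosin-binding protein, had the highest r with the mean of the other members (0.98), and Myoz2, a Z-disc protein of slow fibres, had an r of 0.92. They differed by 0.69 (SE 0.49) and 0.52 (SE 0.44), and by 0.06 and 0.16 without wild type replicate 3. Tnnt1, the slow troponin T, was at 6.36, 6.45 and 4.89 on wild type replicates 1 to 3 and at 6.93, 6.36, 2.99 and 6.70 on knockout replicates 1 to 4. The lowest value was on knockout replicate 3, differing by -3.37 from the lowest other knockout array, the second largest such drop among the 23185 genes. The difference was -0.16 (SE 0.98) with all arrays and 0.76 without knockout replicate 3, and its sign also turned without wild type replicate 1 (0.072) or 2 (0.12).

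Of the 5 other slow members, Myh7, Myl2 and Myl3 were lowest on wild type replicate 1, as 39.1% of all genes were. Myh7, the heavy chain of slow fibres, was at 2.78, 3.39 and 3.75 on wild type replicates 1 to 3 and at 3.24, 3.86, 3.60 and 3.42 on knockout replicates 1 to 4. Its values were near the median over genes on these arrays, and its highest wild type value was on replicate 3. Myl2, the regulatory light chain of slow and heart muscle, was at 2.36, 2.93 and 2.85 on wild type replicates 1 to 3 and at 4.54, 3.91, 2.73 and 2.50 on knockout replicates 1 to 4. Knockout replicates 1 and 2 were high and the other 5 arrays lay close together, below the median over genes, and the difference was 0.70 (SE 0.50), or 0.33 without knockout replicate 1. Tnni1, the slow inhibitory troponin, Tpm3, a tropomyosin also made outside muscle, and Myl3, an essential light chain, differed by -0.09, 0.11 and 0.11, and none of the 3 had its lowest value on wild type replicate 3. Leaving out wild type replicate 1 reversed Myh7 (-0.039), Tnni1 (0.068) and Myl3 (-0.052), and Tpm3 was 0.044 without wild type replicate 3.

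The sarcomere and Z-disc genes that all fibres share were higher in knockout in 7 of 7, with a median of 0.63, and 0 of 7 passed. That median was 0.11 without wild type replicate 3, below those of the fast and slow groups. Acta1, the actin of skeletal thin filaments, was at 10.71, 10.54 and 9.05 on wild type replicates 1 to 3 and at 10.62, 10.64, 10.56 and 11.12 on knockout replicates 1 to 4. Wild type replicate 3 stood apart from the mean of the others by -1.65, whose SD was 0.21, and wild type replicate 1 lay above 3 of the 4 knockout arrays. The difference was 0.63 (SE 0.40, limma unadjusted p = 0.159, 95% interval -0.31 to 1.58), and 0.11 without wild type replicate 3. Ttn, a giant protein that acts as a spring within the sarcomere, was at 7.95, 8.97 and 6.89 on wild type replicates 1 to 3 and at 8.20, 7.67, 8.28 and 8.49 on knockout replicates 1 to 4. Wild type replicate 2 was the highest array and replicate 3 the lowest, so the knockout arrays lay between wild type arrays. Its difference of 0.22 (SE 0.46) turned to -0.30 without wild type replicate 3.

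Neb, the nebulin that runs along thin filaments, and Myot, a Z-disc protein, were both lowest on wild type replicate 3 and high on wild type replicate 2, which stood at 9.39 and 8.99 for Neb and Myot, against 6.90 and 6.51 on wild type replicate 3. Their knockout means were 8.71 ± 0.34 and 8.48 ± 0.41 (SD, n = 4). They differed by 0.65 (SE 0.54) and 0.91 (SE 0.56), and by 0.06 and 0.39 without wild type replicate 3. Actn2, the alpha-actinin of all fibres, differed by 0.74 (SE 0.55), Ldb3, a Z-disc scaffold, by 0.42 (SE 0.31), and Tcap, which caps titin, by 0.21 (SE 0.24). Without wild type replicate 3 these were 0.09, 0.18 and 0.14. Tcap was the 1 gene of the 7 that was not lowest on wild type replicate 3.

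The calcium-handling genes were higher in knockout in 6 of 6, with a median of 0.35 that became 0.018 without wild type replicate 3 and 0.60 without wild type replicate 2, and 0 of 6 passed. Atp2a1, the calcium pump of fast fibres, was at 7.99, 8.09 and 5.62 on wild type replicates 1 to 3 and at 7.52, 7.78, 7.99 and 8.74 on knockout replicates 1 to 4. The other 6 arrays lay between 7.52 and 8.74, and wild type replicate 3 differed from their mean by -2.40. The difference was 0.77 (SE 0.63, limma unadjusted p = 0.254, 95% interval -0.69 to 2.24), and -0.03 without that array. Pvalb, the parvalbumin that buffers calcium in fast fibres, was at 8.62, 8.63 and 6.44 on wild type replicates 1 to 3 and at 8.13, 8.50, 9.07 and 9.28 on knockout replicates 1 to 4. It followed Atp2a1 in its low value on wild type replicate 3 and its high one on knockout replicate 4, and it differed by 0.85 (SE 0.58), or 0.12 without wild type replicate 3.

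Ryr1, the release channel of the sarcoplasmic reticulum, was at 4.63, 5.15 and 4.05 on wild type replicates 1 to 3 and at 4.72, 4.41, 4.86 and 5.02 on knockout replicates 1 to 4. The knockout values lay inside the wild type range, and the difference of 0.14 (SE 0.28) was -0.14 without wild type replicate 3. Casq1 and Casq2, the fast and the slow calsequestrin that store calcium, differed by 0.49 (SE 0.41) and 0.21 (SE 0.17), and by -0.04 and 0.07 without wild type replicate 3. Cacna1s, the voltage sensor of the transverse tubule, differed by 0.17 (SE 0.22), or 0.043 without wild type replicate 1, and was the 1 gene of the 6 whose lowest value was not on wild type replicate 3.

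Genes of muscle energy supply were higher in knockout in 5 of 5, with a median of 0.41 that became 0.049 without wild type replicate 3, 0.23 without knockout replicate 4 and 0.67 without wild type replicate 1, and 0 of 5 passed. Ckm, the creatine kinase that rebuilds ATP at the sarcomere, was at 8.84, 8.88 and 7.45 on wild type replicates 1 to 3 and at 8.88, 8.61, 9.21 and 9.26 on knockout replicates 1 to 4. The difference was 0.60 (SE 0.38, limma unadjusted p = 0.154, 95% interval -0.28 to 1.48), or 0.13 without wild type replicate 3, and the other 6 arrays lay between 8.61 and 9.26. Mb, the oxygen store myoglobin, was at 6.12, 5.79 and 4.82 on wild type replicates 1 to 3 and at 5.74, 6.02, 5.52 and 6.60 on knockout replicates 1 to 4. It differed by 0.40 (SE 0.37), or 0.02 without wild type replicate 3. Pygm, the glycogen phosphorylase of muscle, was at 3.53 on wild type replicate 3 and between 5.11 and 6.34 on the others, and its difference of 0.61 was -0.13 without that array. Ckmt2, the mitochondrial creatine kinase, differed by 0.41 (SE 0.27), or 0.18 without wild type replicate 3, and Eno3, the muscle enolase, by 0.09 (SE 0.15), with Eno3 nearly level over the arrays (SD 0.11 in knockout and 0.22 in wild type).

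The 3 myogenic transcription factors did not share an order, and their median difference of -0.044 became -0.43 without wild type replicate 1 and 0.33 without wild type replicate 3; 0 of 3 passed. Myod1, which starts the muscle programme, was at 4.81, 5.59 and 6.37 on wild type replicates 1 to 3 and at 5.59, 5.31, 5.59 and 5.70 on knockout replicates 1 to 4. Myog, which drives differentiation, was at 4.12, 4.33 and 5.50 on wild type replicates 1 to 3 and at 4.66, 4.35, 4.23 and 4.27 on knockout replicates 1 to 4. Both were highest on wild type replicate 3, where 28 of the 39 members other than the 3 factors were lowest, and lowest on wild type replicate 1; over all genes, 30.1% were highest on wild type replicate 3 and 39.1% lowest on wild type replicate 1. Myog had the lowest r of any member with the mean of the others (-0.82). Their differences were -0.04 (SE 0.34) and -0.27 (SE 0.33), and without wild type replicate 3 both changed sign, to 0.35 and 0.15.

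Myf6, the factor kept on in mature fibres, was at 4.39, 6.40 and 3.83 on wild type replicates 1 to 3 and at 4.89, 6.26, 5.66 and 6.11 on knockout replicates 1 to 4. Like those 28 it was lowest on wild type replicate 3, and it was highest on wild type replicate 2, and its knockout values lay inside the wild type range. The difference was 0.85 (SE 0.63), 0.33 without wild type replicate 3 and 1.62 without wild type replicate 2.

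Scaling bore on the test of single members without ending in a call. With each array centred and scaled to a common SD, the median difference was 0.49 and 6 of 42 members had an unadjusted p under 0.05, all higher in knockout, against 2.83% of all genes. They were Acta1, Tnnt3, Ckm, Pvalb, Mylpf and Tnnc1, and the smallest unadjusted p in limma was 0.00331 for Acta1. With the SD of each array as a covariate the count was 12, against 7.51% of all genes. After quantile normalization it was 4, Tnnc1, Ckm, Ckmt2 and Pvalb, against 3.06% of all genes. Bright genes in general were also higher in knockout with the scaling. The median scaled difference over all genes with a mean of at least 6 was 0.27 (members 0.80). With a mean of at least 8 it was 0.52 (members 0.84). The smallest adjusted p among the members was 0.9999 with the scaling and 0.9989 with quantile normalization, so 0 of 42 passed in either. With limma's array weights, whose fit stopped before it converged, wild type replicate 2 took a weight of 75.4 and wild type replicates 1 and 3 weights of 0.106 and 0.109. The comparison then rested nearly on 1 wild type array, and the members' median turned to -0.06, with 19 of 42 higher in knockout. Ttn alone among the members passed in limma there, lower in knockout, with a difference of -0.83 (adjusted p = 0.025), while 17.4% of all genes passed, and 8 of 42 members had an unadjusted p under 0.05 against 31.8%. With the weights computed gene by gene, wild type replicate 2 had a weight of 3.72, 0 of 42 passed and the median was 0.0034. With wild type replicate 2 as the only wild type array it was -0.046, and 23 of 42 members were lower in knockout.

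Further genes of the muscle fibre were listed by name, but with earlier results of these data known, so their counts are descriptions. Over all genes, 1.88% had an unadjusted p under 0.05 in limma. Of 19 other sarcomere and cytoskeleton genes, 16 were higher in knockout (median 0.34), and 0 passed and 0 had an unadjusted p under 0.05. Smpx, a small costamere protein, was at 6.92, 8.48 and 6.43 on wild type replicates 1 to 3 and at 8.12, 8.12, 8.14 and 8.71 on knockout replicates 1 to 4. Wild type replicates 1 and 3 were both low and wild type replicate 2 lay among the knockout arrays, with a difference of 0.996 (SE 0.46). Without wild type replicate 3 it was 0.57, and without wild type replicate 2 it was 1.597. Lmod3, an actin nucleator, differed by 0.67 (SE 0.31), or 0.31 without wild type replicate 1, and Tpm2, a tropomyosin, by 0.65 (SE 0.53), or -0.07 without wild type replicate 3. Without wild type replicate 3 the list's median was 0.16, and without wild type replicate 2 it was 0.71.

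Of 13 other excitation and calcium genes, 9 were higher in knockout (median 0.21), 0 passed and 2 had an unadjusted p under 0.05, against 1.88% of all genes. These were Hrc, a calcium-binding protein of the sarcoplasmic reticulum, at 0.89 (SE 0.35) and Sypl2, a triad junction protein, at 0.44 (SE 0.17). Trdn, the triadin that anchors calsequestrin, was at 6.29, 9.33 and 7.75 on wild type replicates 1 to 3 and at 8.74, 8.23, 8.73 and 9.17 on knockout replicates 1 to 4, so that its low array was wild type replicate 1. Its difference of 0.92 was 0.17 without that array. The list's median was 0.048 without wild type replicate 1, 0.11 without knockout replicate 4 and 0.31 without wild type replicate 2.

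Of 12 other energy genes, 11 were higher in knockout (median 0.49), 0 passed and 3 had an unadjusted p under 0.05, against 1.88% of all genes. They were Cox7a1, Cox6a2 and Cox8b, which encode muscle isoforms of cytochrome c oxidase subunits. Cox7a1 was at 7.08, 8.04 and 7.04 on wild type replicates 1 to 3 and at 8.35, 8.16, 8.57 and 8.83 on knockout replicates 1 to 4. Every knockout array lay above every wild type array, and the difference was 1.09 (SE 0.29, limma unadjusted p = 0.00653, 95% interval 0.41 to 1.77), or 0.92 without wild type replicate 3. The list's median was 0.26 without wild type replicate 3 and 0.77 without wild type replicate 2.

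Genes of the nerve-muscle contact and of muscle precursors had median differences near 0. Of 10 neuromuscular junction genes 8 were higher in knockout (median 0.037), and of 9 satellite cell, embryonic myosin and fusion genes 5 were higher (median 0.017), with 0 in either list at an unadjusted p under 0.05. With single arrays left out these medians ranged from -0.011 to 0.20 and from -0.13 to 0.24. Mymk, which encodes the fusion protein myomaker, was at 3.19, 3.03 and 3.28 on wild type replicates 1 to 3 and at 3.52, 3.56, 3.35 and 3.35 on knockout replicates 1 to 4, below the median over genes on all 7 arrays. Its genotypes did not overlap, and the difference was 0.28 (SE 0.13). Of 5 atrophy genes 4 were higher (median 0.29), among them Trim63, a ubiquitin ligase of the sarcomere, at 0.49 (SE 0.28) and Mstn, the growth inhibitor myostatin, at 1.07 (SE 0.71). Mstn was 0.53 without wild type replicate 1 and 1.87 without wild type replicate 2, Trim63 was 0.28 without knockout replicate 4, and the list's median was 0.55 without wild type replicate 2. In the 6 lists of further muscle genes, 0 genes passed at an adjusted p under 0.05 in limma.

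Outside the 42, the genes whose values over the 7 arrays correlated most with the member score were Ccdc28b (r = 0.992), Ms4a6b (r = 0.992), Asnsd1 (r = 0.992), Pstk (r = 0.990) and Cryab (r = 0.986), followed by Sdhaf4, Lyrm2, Csrp3, Mettl7a1 and Ugp2 at r of 0.984 or 0.985. Csrp3 was on the list of other sarcomere genes and the other 9 were on none of the lists. These correlations share the arrays' own level and spread and describe 7 points.

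Markers of other cell types differed between arrays as well. On wild type replicate 3, the keratinocyte score was -0.87 (the other arrays -0.14 to 0.98), the fibroblast score -0.98 (-0.32 to 0.51) and the adipocyte score -0.78 (-0.29 to 0.39), and in each of these lists wild type replicate 3 was the lowest array. Keratinocyte markers had 9 of 10 genes lowest on that array, fibroblast markers 6 of 10 and adipocyte markers 6 of 9. Hair follicle markers were highest on wild type replicate 1 in 9 of 9, with a score of 3.31 there against -1.51 to 0.29 elsewhere. Smooth muscle markers had scores from -0.27 to 0.19 and heart muscle markers from -0.22 to 0.28, with medians of the difference of 0.033 and 0.047 (-0.023 and 0.26 without wild type replicate 3). The median difference of adipocyte markers was 0.36, with 7 of 9 higher in knockout, which became 0.079 without wild type replicate 3. That of hair follicle markers was -1.37, with 9 of 9 lower, and -0.32 without wild type replicate 1. Fibroblast markers had a median of 0.17 and keratinocyte markers one of -0.039, and without wild type replicate 3 these were -0.33 and -0.52. Acta2, the smooth muscle actin, differed by -0.33 (SE 0.26), -0.044 without wild type replicate 1 and -0.55 without wild type replicate 3. Actg2, the enteric actin, differed by 0.68 (SE 0.24), with a limma unadjusted p of 0.0227 that did not pass after adjustment. The part of these cell types in the members' values was not tested.

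**Figure D4:**
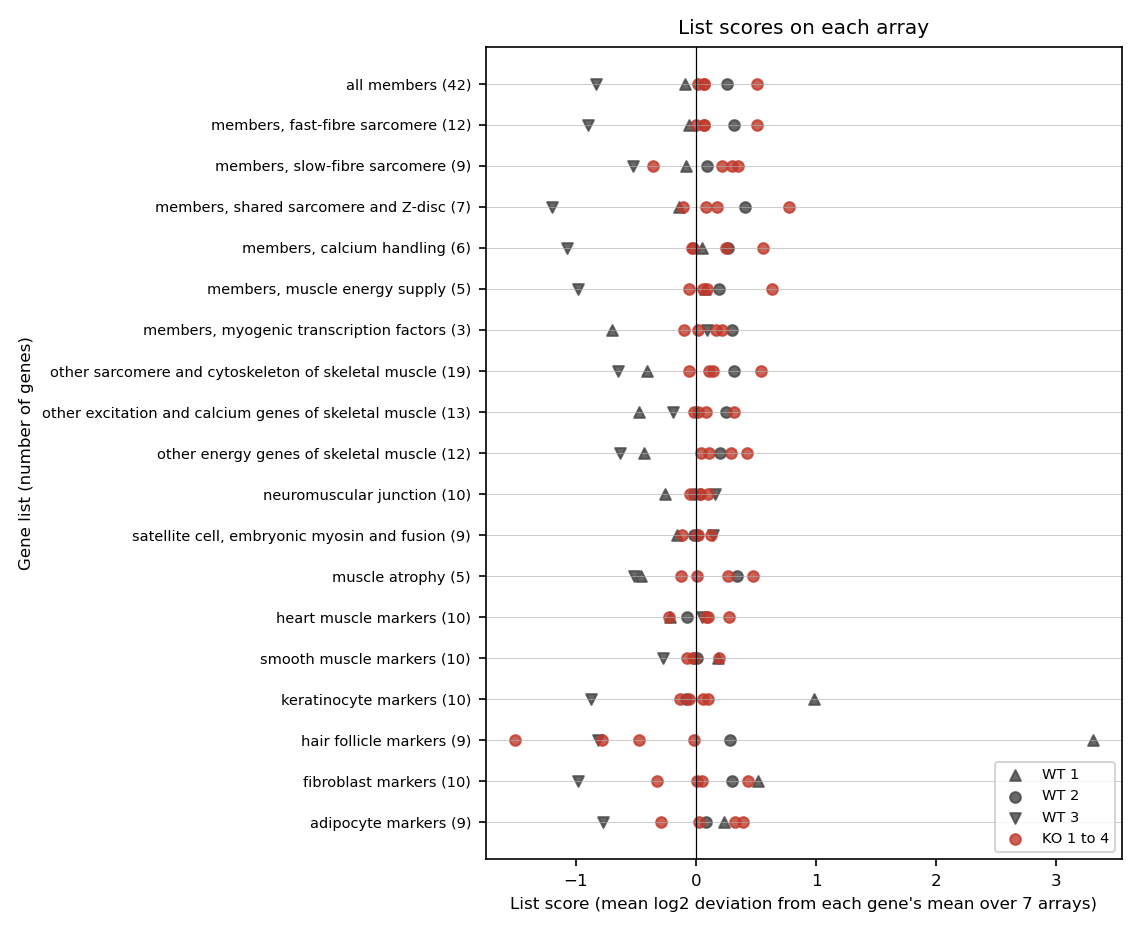
List scores (mean log2 deviation from each gene's mean over the 7 arrays) on each array, for all 42 members, their 6 role groups and 12 further lists, with the number of genes in brackets. Wild type replicate 3 (downward triangles) is lowest for 5 of the 6 role groups and for keratinocyte, fibroblast and adipocyte markers, and wild type replicate 1 (upward triangles) is highest for hair follicle markers at 3.31.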

How the data were processed

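RNA of lesional skin (4 knockout and 3 wild type samples) was labelled for Affymetrix whole-transcript arrays, 1 array a sample, per the labels' protocols. The authors deposited log2 values made with RMA, per the submitters' processing notes; no version, probe-set definition or genome build is given in the sources used here. The platform annotation gave 1 symbol to 23185 of 25206 probe sets, several to 0 and none to 2021; all 23185 matched the RefSeq table. Precision is limited by how few arrays there are.

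The deposited values were tested as given in limma 3.58.1 (R 4.3.3, lmFit and eBayes, knockout minus wild type, all 7 arrays), with Benjamini-Hochberg adjustment over the 23185 genes and a threshold of 0.05. Intervals are 95% intervals from the same fit. The fit was also run on simulated arrays, with independent noise for each gene and shifts of known size. These lacked the differences in spread over genes between the arrays, so they do not check the fit under such differences. Figures and lists used Python 3.11.15, pandas 2.3.3 and matplotlib 3.10.9. Alternatives left out each array, or wild type replicates 1 and 3, changed normalization, filter, moderation or array weights, or added the replicate number, the suffix of the sample code or the array SD to the model.

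The members and lists were chosen with earlier results of these data known. Members described in full were picked by role, with the 3 of smallest p, and the others are given by count or difference; from each other list, up to 2 genes of smallest p and the 1 of highest level are named. Several choices were made after values were seen. The gene-by-gene array weights were added after the default weights had stopped before convergence and called 1 member. Genes of the keratinocyte, hair follicle, fibroblast and adipocyte lists are given only as scores and counts, although the rule would name some. The 6 promoters shown were chosen after values and motif matches were seen, and their window was widened from a shorter one that held fewer matches. Mybpc1 was plotted outside the naming rule, and the split by brightness and the pattern on knockout replicate 3 were also looked for afterwards.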

Additional observations from a re-analysis of the deposited data

Results flagged for a closer look

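Within the 4 knockout arrays, 7 of the 42 members had 1 array far from the other 3, by a gap above Dixon's 95% critical value. Chance gives such a gap in about 1 in 20 groups of untied values, but many of these values are tied: the gap was found in 20.3% of all genes, more than the 16.7% of the members. Of the 7, Mybpc2, Myoz1, Myl3 and Casq2 have tied knockout values. Among genes without ties it was found in 3 of 34 members and 6.75% of all genes. The 3 wild type arrays are too few for this rule. Knockout replicate 4 stood high for Acta1, the skeletal actin, at 11.115, for Mybpc2, a fast myosin-binding protein, at 5.24, for Myoz1, a fast Z-disc protein, at 4.81 and for Cacna1s, the voltage sensor, at 5.131. Tnnt1, the slow troponin T, stood low on knockout replicate 3 at 2.989. Casq2, the slow calsequestrin, stood high on knockout replicate 1 at 4.5, and Myl3, a slow light chain, on knockout replicate 2 at 2.353, a level below the median over genes.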

How the results depend on the processing

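In the fit of all 7 arrays 0 members were called. Leaving out single arrays gave a median difference of 0.122 to 0.617 and 0 to 0 members called. From 0 to 9 members then had an unadjusted p under 0.05 in limma. The count was 9 without wild type replicate 2, against 3.48% of all genes. It was 0 without wild type replicate 3, against 2786 of all 23185 genes. Across the 19 alternatives the default array weights were the only one with a member called (Ttn).

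Counts of members with an unadjusted p under 0.05 in limma moved to 12 with the array SD as a covariate, against 7.51% of all genes. They were 6 with scaling, against 2.83%, and 4 with quantile normalization, against 3.06%. With the default array weights the count was 8, against 31.8%. Those weights also called 1 member, against 17.4% of all genes, and gave a median of -0.064. Without wild type replicates 1 and 3 the median was -0.046. Among the genes picked by the naming rule, signs turned as follows, with the cause not tested. With the array SD as a covariate Myh2 was 0.019, Tnnt1 0.031 and Tnnc2 0.033. Scaling gave Myh2 0.032, and quantile normalization gave Myh2 0.045 and Tnnt1 0.019. With the code suffix as a block Myh2 was 0.045 and Tnnt1 0.0010. Without wild type replicates 1 and 3, Myh4 was -0.52, Myh1 -0.053, Mylpf -0.0020, Tnni2 -0.072, Tnni1 0.27, Ttn -0.81, Atp2a1 -0.086, Ryr1 -0.40, Myf6 -0.67, Myog 0.050, Smpx -0.21, Tpm2 -0.24, Trdn -0.61, Colq 0.028 and Mstn -0.51. With the default array weights, Myh4 was -0.52, Myh1 -0.080, Mylpf -4.0e-05, Tnni2 -0.074, Tnni1 0.27, Ttn -0.83, Atp2a1 -0.11, Ryr1 -0.42, Myf6 -0.65, Myog 0.045, Smpx -0.22, Tpm2 -0.25, Trdn -0.64, Colq 0.034 and Mstn -0.53, and Mymk, at 0.41, passed the threshold. The gene-by-gene weights, added after that result was seen, gave Myh4 -0.28, Myh1 -0.027, Tnni2 -0.019, Tnni1 0.21, Ttn -0.69, Ryr1 -0.34, Myf6 -0.43, Smpx -0.052, Tpm2 -0.13, Trdn -0.42, Colq 0.013 and Mstn -0.31.

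Leaving out single arrays turned the sign at least once in 12 of the 46 genes picked by the naming rule. They were Myh2 (-0.26 to 0.17), Myh7 (-0.039 to 0.45), Tnnt1 (-0.66 to 0.76), Tnni1 (-0.28 to 0.068), Tnnc2 (-0.96 to 0.41) and Ttn (-0.30 to 0.74). The others were Atp2a1 (-0.033 to 1.21), Ryr1 (-0.14 to 0.41), Myod1 (-0.43 to 0.35), Myog (-0.54 to 0.15), Tpm2 (-0.074 to 1.10) and Colq (-0.30 to 0.13). Members outside that rule turned as well. Among them were Casq1 (-0.036) and Pygm (-0.13) without wild type replicate 3, and Myl3 (-0.052) without wild type replicate 1.

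Deviations of same-numbered arrays from their group means correlated at -0.086, -0.15 and 0.034. These values cannot show whether the samples were paired, since wild type replicates 1 and 3 differed from the other arrays in spread over genes. With the replicate block, which leaves knockout replicate 4 without a partner, the members' median was 0.228, and 0 members were called and 0 had an unadjusted p under 0.05.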

Other observations

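Single genes of slow, embryonic and heart-type muscle were low on knockout replicate 3; they were picked after their values were seen, and no test was run. Sln, which encodes the calcium pump inhibitor sarcolipin, was at 2.99 there and between 4.18 and 5.72 on the other knockout arrays. Myh8, the perinatal myosin heavy chain, was at 3.83 against 5.03 to 5.09, and Tnnt2, the heart troponin T, at 5.46 against 6.27 to 6.36. Actc1, the heart actin, was at 5.87 on both knockout replicate 3 and wild type replicate 3, and Myl4, the atrial and embryonic light chain, at 1.80 on both. The lists did not move as a whole. Among the knockout arrays, replicate 3 was the lowest for 4 of 9 slow members and the highest for 1, the lowest for 5 of 10 heart markers and the highest for 2, and the lowest for 2 of 9 satellite cell, embryonic myosin and fusion genes and the highest for 3. Over all genes it was the lowest for 19.2% and the highest for 22.4%.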
